A study of Mus musculus with 8 samples.

Results

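The genes described here encode 10 glycoproteins of the extracellular matrix, chosen by name as matricellular or fibre-forming proteins. They are fibronectin (Fn1), tenascin C (Tnc), SPARC (Sparc), SPARC-like 1 (Sparcl1), periostin (Postn), thrombospondins 1 and 2 (Thbs1, Thbs2), osteopontin (Spp1), fibrillin 1 (Fbn1) and elastin (Eln). They are 10 of the 29621 genes with values in the files, and all 10 passed the filter on low counts that left 14267 genes for testing. Whole pancreas of C57BL/6 mice was sequenced at 6 weeks (postnatal day 42), with 4 libraries from KPC-OG and 4 from KPC. KPC-OG mice carried p48-Cre, an oncogenic allele switched on by Cre, Trp53fl/fl, and in addition R26tm1(LSL-OG), an allele that needs Cre to be expressed. KPC mice carried p48-Cre, the same oncogenic allele and Trp53fl/fl, without the R26 allele. The series title calls the model antigenic, and the comparison of KPC-OG with KPC asks how the pancreas differs when the OG allele is added. In both genotypes Cre came from the p48 (Ptf1a) locus, which is active in the cells that build the exocrine pancreas, so the floxed and Cre-switched alleles are not recombined by design in stromal or immune cells. Whether each library came from its own mouse is not stated in the labels, and the p-values rest on the spread between libraries, some of which may be technical.

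Fibronectin, fibrillin 1 and elastin are structural: fibronectin is assembled on cell surfaces into fibrils, fibrillin 1 forms microfibrils, and elastin is laid down on those microfibrils and cross-linked into elastic fibres. Tenascin C, SPARC, periostin, the thrombospondins and osteopontin are matricellular proteins, secreted proteins that bind matrix, growth factors and cell surface receptors and change how cells attach, rather than bearing load. In the adult pancreas they are sparse around healthy acini, and they are known as prominent products of activated stellate cells, fibroblasts, macrophages and ductal epithelium in pancreatitis and in the desmoplastic stroma of pancreatic cancer.

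KPC-OG libraries held 13671606 to 18292115 estimated reads and KPC libraries 7373286 to 11292570. The summed level of 8 acinar markers was lower in KPC-OG after scaling between libraries. It ran from 41045 to 131780 CPM (counts scaled to a common library total) in KPC-OG and from 250080 to 463700 CPM in KPC. The libraries of both genotypes therefore carry the labelled tissue. These sums and the levels below are CPM scaled by TMM (trimmed mean of M-values). This scaling sets most genes level between libraries, so its values are not parts of the whole RNA. The size of the acinar difference depends on it. After it, 1 read was worth 0.0259 to 0.0655 CPM in KPC-OG and 0.169 to 0.265 CPM in KPC, so low values are coarser in KPC. The mitochondrial leucyl-tRNA synthetase gene Lars2 alone took 3.73% to 7.11% of counts in KPC-OG and 20.8% to 30.0% in KPC.

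Of the 10 glycoprotein genes, 9 were higher in KPC-OG than in KPC by edgeR's quasi-likelihood test (Benjamini-Hochberg adjusted p under 0.05 over 14267 genes), against 17.4% of all tested genes, and 34.1% that passed in either direction. All 9 were at least 2-fold higher, against 10.4% of all tested genes. Their fold changes were close to each other, from a log2 value of 1.14 for Thbs1 to 1.65 for Spp1, with a median of 1.28 over all 10 genes and 0.085 over all tested genes. None was lower (0 at an unadjusted p under 0.05, 0 by DESeq2 and 0 by limma-voom), against 16.6% of all tested genes. Fbn1 did not pass. Every KPC-OG library lay above every KPC library for 6 of the 10 genes, against 17.6% of all tested genes, and for 9 of the 10 without KPC-OG library 3, against 24.7%. Without KPC-OG library 4, or without KPC library 1, the count of genes called higher fell to 5, with Tnc, Sparcl1, Postn and Eln no longer called, against 12.0% and 12.5% of all genes tested in those fits. The count was 7 without KPC-OG library 1 and 8 without KPC-OG library 2, KPC library 3 or KPC library 4, against 13.2%, 12.4%, 14.2% and 14.6%. It was 9 by DESeq2 and 8 by limma-voom, against 19.0% and 12.2%. Without KPC-OG library 3, or without KPC library 2, the same 9 genes were called, against 19.7% and 16.4%. Fn1, Sparc, Thbs1, Thbs2 and Spp1 were called whichever of the 8 libraries was left out. With library sizes alone the median gene shifted by a log2 value of 1.82, and all 10 glycoprotein genes were called higher, against 91.7% of all tested genes, and likewise with TPM values at a pseudocount of 1 or 0.1 (90.7% and 90.4%). With library sizes re-centred on the median gene the same 5 genes were called, against 6.43%, and all 10 kept a positive fold change. In bulk tissue, a larger number of cells that make a protein and more RNA per cell cannot be told apart.

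**Figure D1:**
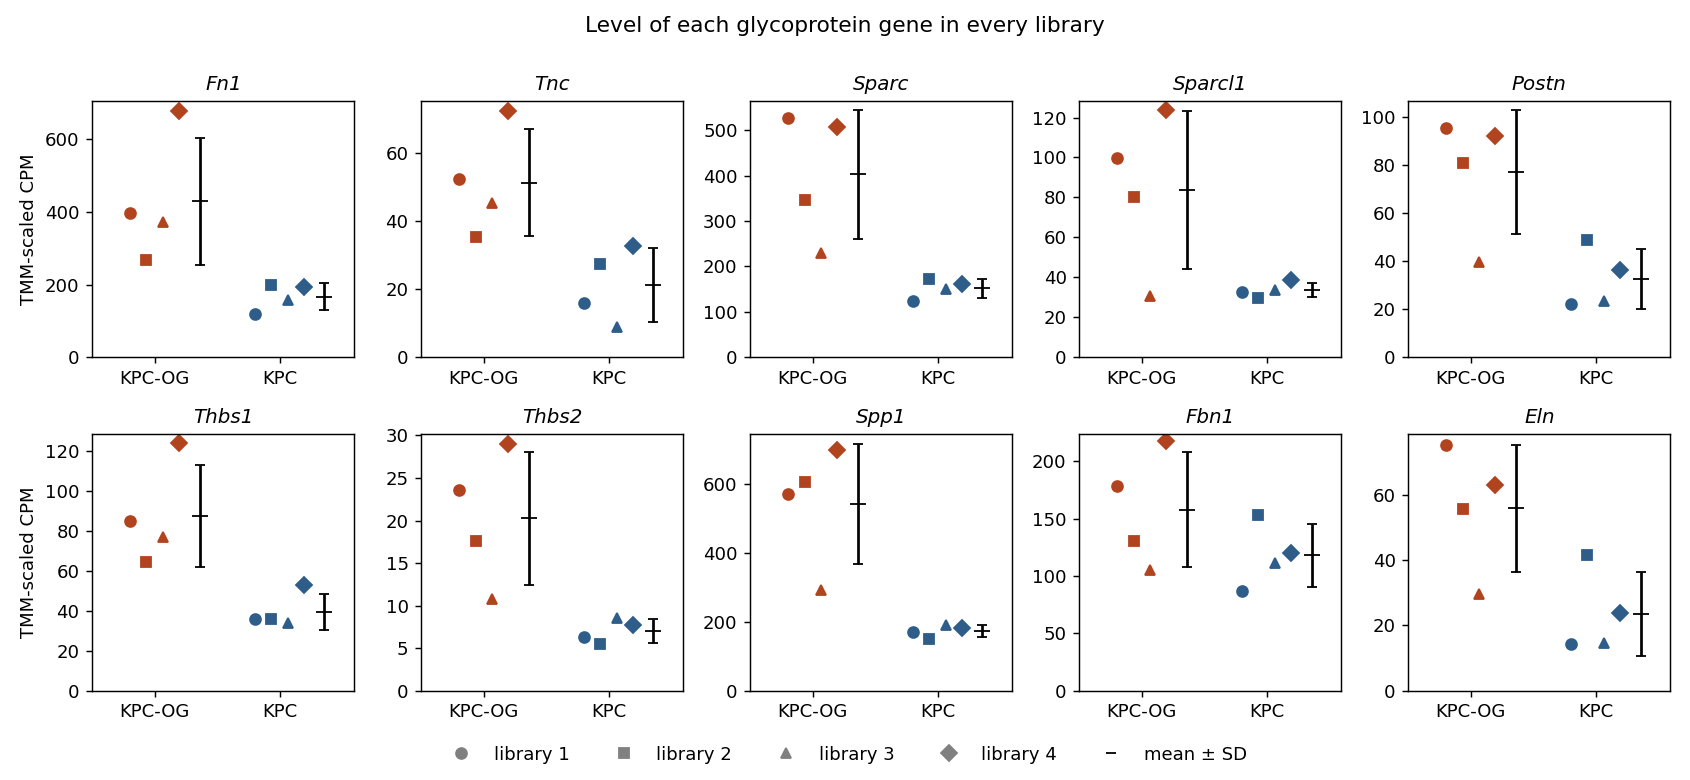
TMM-scaled CPM of each of the 10 genes (vertical axis) in the 4 KPC-OG libraries and the 4 KPC libraries, with the symbol giving the library number and the bar the mean ± SD. Fn1, Tnc, Sparc, Thbs1, Thbs2 and Spp1 show no overlap between genotypes, and KPC-OG library 3 is the lowest KPC-OG point for 7 of the 10 genes.

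Fibronectin, a fibril protein that binds integrins and collagen, has the most transcripts of the set in the files, 17. Fn1 (ENSMUSG00000026193) lies on the minus strand at chr1:71585520-71653200 (GRCm38). Its level was 398, 268, 373 and 679 CPM in KPC-OG libraries 1 to 4, against 118, 200, 157 and 194 CPM in KPC libraries 1 to 4. The lowest KPC-OG library, library 2, was above the highest KPC library, also library 2. The means were 430 ± 176 CPM in KPC-OG and 167 ± 37.9 CPM in KPC (SD, n = 4 each), a log2 fold change of 1.36 ± 0.29 (SE; edgeR adjusted p = 0.0059). The gene rested on 5695 to 22816 estimated reads in KPC-OG and on 590 to 1146 in KPC.

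Fn1 transcripts differ by cassette exons that each encode one fibronectin type III repeat, extra domain B and extra domain A, and by the length of the variable region. Plasma fibronectin, made by hepatocytes, lacks both extra domains, whereas cellular fibronectin, made by fibroblasts and other cells in tissue, holds variable amounts of them. The 2 cassette exons and the joins that form when they are skipped are printed here because reads over these stretches separate the forms. They were read from the Fn1-201 transcript and the GRCm38 annotation on the minus strand, 5′ to 3′, with the cassette exon in capitals and 10 bases of the neighbouring exons in lower case. In the skipped joins, the first exon is in lower case and the exon after the join in capitals, 20 bases of each.
Extra domain B exon, 273 bases, chr1:71613763-71614035: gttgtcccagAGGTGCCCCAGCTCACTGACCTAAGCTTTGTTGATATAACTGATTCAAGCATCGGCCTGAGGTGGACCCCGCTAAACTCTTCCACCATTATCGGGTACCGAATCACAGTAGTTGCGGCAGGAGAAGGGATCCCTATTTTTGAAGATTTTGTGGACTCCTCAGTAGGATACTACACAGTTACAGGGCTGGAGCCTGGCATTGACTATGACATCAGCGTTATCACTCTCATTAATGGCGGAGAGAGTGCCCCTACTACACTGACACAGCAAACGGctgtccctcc
Extra domain B skipped: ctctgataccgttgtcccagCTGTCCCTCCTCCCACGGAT
Extra domain A exon, 270 bases, chr1:71603660-71603929: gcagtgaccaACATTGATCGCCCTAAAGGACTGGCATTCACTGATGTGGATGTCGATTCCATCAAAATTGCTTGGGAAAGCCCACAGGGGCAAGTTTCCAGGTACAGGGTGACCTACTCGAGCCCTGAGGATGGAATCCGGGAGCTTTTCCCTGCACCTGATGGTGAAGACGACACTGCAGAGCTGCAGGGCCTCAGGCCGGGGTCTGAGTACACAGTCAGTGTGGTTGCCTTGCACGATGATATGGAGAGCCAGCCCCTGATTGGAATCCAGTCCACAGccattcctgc
Extra domain A skipped: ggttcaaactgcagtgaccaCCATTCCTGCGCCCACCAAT

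The extra domain A exon was held by 44.0%, 45.4%, 44.6% and 45.1% of the coding Fn1 transcripts that span it, by TPM (transcript level per length, scaled to a common total), in KPC-OG libraries 1 to 4. In KPC libraries 1 to 4 the share was 46.2%, 44.6%, 27.2% and 32.8%. The KPC-OG libraries lay within 44.0% to 45.4%, and 2 KPC libraries lay beside them while the other two were lower. The mean difference, KPC-OG minus KPC, was 7.10 percentage points (two-sided exact permutation p = 0.371, or 0.543 adjusted over 19 shares). The extra domain B exon, held only by Fn1-201 among the transcripts in the files, had shares of 11.2%, 14.6%, 20.1% and 11.8% in KPC-OG against 6.02%, 17.2%, 14.3% and 6.85% in KPC. The groups overlapped, with a mean difference of 3.35 points (exact two-sided permutation p = 0.371, adjusted p = 0.543). The reads assigned to the extra domain A transcripts numbered 1936 to 8226 in KPC-OG and 145 to 418 in KPC. Those assigned to the extra domain B transcript numbered 892 to 2201 in KPC-OG and 35 to 164 in KPC. The KPC shares are therefore less precise, most of all for extra domain B.

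Of 19 transcript and exon shares of Fn1 tested, none passed after adjustment, and 2 reached an unadjusted p of 0.0286 in the exact permutation test, the smallest that 4 libraries against 4 can give. A single share cannot pass the adjustment over 19 in a design of this size, so the count of 0 does not show that the shares were alike. Fn1-203, a coding transcript without extra domains A and B, made up 3.05% ± 2.12 of Fn1 TPM in KPC-OG and 11.9% ± 7.65 in KPC (SD, n = 4 each; exact permutation adjusted p = 0.271). Fn1-212, a retained-intron transcript, made up 3.15% ± 1.42 in KPC-OG and 0.265% ± 0.530 in KPC (SD, n = 4 each; exact permutation adjusted p = 0.271). The variable region showed no steady pattern in KPC. Its form of 392 bases took 36.2% to 62.8% of the full-length coding transcripts in KPC-OG and 4.18% to 72.2% in KPC. The form of 467 bases took 36.2% to 61.5% in KPC-OG and 27.8% to 85.0% in KPC. A form of 107 bases took 0.979% to 2.95% in KPC-OG and 0% to 57.3% in KPC.

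A class defined after the shares had been seen, the 7 full-length coding transcripts together, is given as a description with no test. It made up 33.6%, 31.2%, 34.9% and 35.0% of Fn1 TPM in KPC-OG, against 59.0%, 49.0%, 46.7% and 42.8% in KPC, with no overlap. In estimated reads the same class made up 72.8% to 77.6% in KPC-OG and 83.6% to 89.9% in KPC. The rest of Fn1 TPM fell on short coding fragments, transcripts annotated for nonsense-mediated decay and retained-intron transcripts. Retained-intron transcripts held 7.30%, 13.2%, 17.6% and 8.87% of Fn1 TPM in KPC-OG and 1.46%, 12.3%, 10.3% and 4.80% in KPC, and the groups overlapped. Reads assigned to the full-length coding class numbered 4210 to 17709 in KPC-OG and 502 to 958 in KPC. The class thus had more reads in every KPC-OG library, and those libraries were deeper. Its share within Fn1 was lower in KPC-OG in both TPM and reads.

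**Figure D2:**
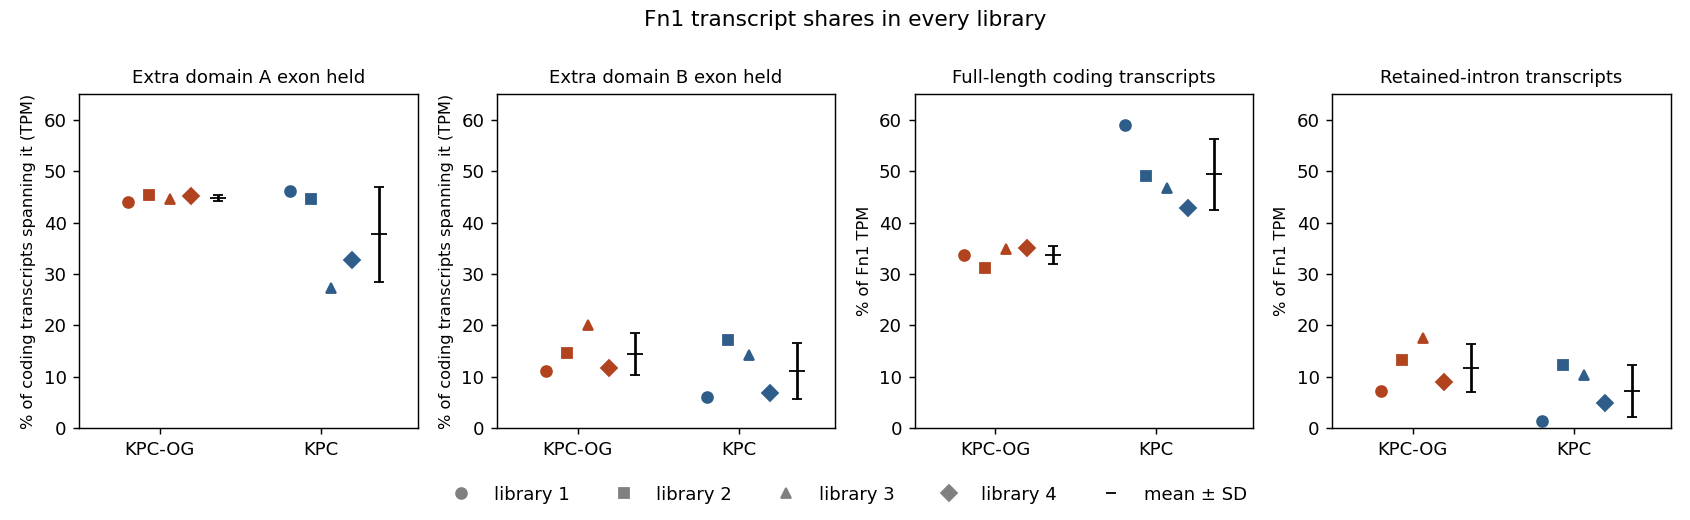
Shares of Fn1 transcripts in percent (vertical axis) in the 4 KPC-OG and 4 KPC libraries, with bars at the mean ± SD; the first 2 panels give the share of spanning coding transcripts that hold extra domain A or B, and the other 2 the share of all Fn1 TPM. The extra domain A share is near 44% to 45% in every KPC-OG library and spans 27.2% to 46.2% in KPC, and the full-length coding share does not overlap between genotypes.

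Fibrillin 1 and elastin, which build elastic fibres, differed in their calls. Fbn1 (ENSMUSG00000027204; chr2:125300594-125507993, minus strand) had 179, 130, 105 and 217 CPM in KPC-OG libraries 1 to 4, against 87.1, 153, 111 and 120 CPM in KPC libraries 1 to 4. KPC library 2 stood above KPC-OG libraries 2 and 3, and the groups overlapped. The means of 158 ± 50.2 CPM in KPC-OG and 118 ± 27.2 CPM in KPC (SD, n = 4 each) gave a log2 fold change of 0.42 ± 0.25 (SE; edgeR adjusted p = 0.217). Without KPC-OG library 3 and KPC library 2 together, a setting chosen after the data were seen, it was called, with a log2 fold change of 0.69 (edgeR adjusted p = 0.0289), and no single left-out library made it pass.

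Eln (ENSMUSG00000029675; chr5:134702593-134747323, minus strand), which encodes tropoelastin, had 75.4, 55.6, 29.5 and 62.9 CPM in KPC-OG and 14.3, 41.7, 14.6 and 23.6 CPM in KPC. KPC library 2 was above KPC-OG library 3, so the groups overlapped. The means were 55.8 ± 19.4 CPM in KPC-OG and 23.6 ± 12.8 CPM in KPC (SD, n = 4 each), a log2 fold change of 1.24 ± 0.39 (SE; edgeR adjusted p = 0.0363). The call rested close to the threshold: leaving out any one library other than KPC-OG library 3 or KPC library 2 ended it, with adjusted p-values of up to 0.0922, and it was also lost without the filter on low counts (edgeR adjusted p = 0.0604).

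Osteopontin, SPARC and the thrombospondins gave the firmest calls among the matricellular genes. Spp1 (ENSMUSG00000029304; chr5:104435118-104441050, plus strand), a secreted phosphoprotein that binds αv integrins and CD44 and is made by ductal cells and macrophages, had 572, 605, 292 and 698 CPM in KPC-OG, against 169, 150, 190 and 182 CPM in KPC. Every KPC-OG library was above every KPC library, and the KPC libraries lay close together. The means were 542 ± 174 CPM in KPC-OG and 173 ± 17.3 CPM in KPC (SD, n = 4 each), a log2 fold change of 1.65 ± 0.26 (SE; edgeR adjusted p = 0.00152). It was the largest log2 fold change of the 10 genes, from 1.50 to 1.87 when each library was left out in turn. Spp1 rested on 717 to 1075 estimated reads in KPC.

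Sparc (ENSMUSG00000018593; chr11:55394500-55423183, minus strand), which encodes a collagen-binding protein also called osteonectin, had 528, 345, 229 and 508 CPM in KPC-OG, against 123, 173, 149 and 161 CPM in KPC. The groups did not overlap, and KPC-OG library 3 was the nearest to KPC. The means were 403 ± 142 CPM in KPC-OG and 152 ± 21.2 CPM in KPC (SD, n = 4 each), a log2 fold change of 1.41 ± 0.26 (SE; edgeR adjusted p = 0.0033). Sparcl1 (ENSMUSG00000029309; chr5:104079111-104113733, minus strand), which encodes the related protein hevin, had 99.9, 80.0, 30.6 and 124 CPM in KPC-OG, against 32.5, 29.9, 33.7 and 38.7 CPM in KPC. KPC-OG library 3 sat inside the KPC range while the other KPC-OG libraries were above it. The means were 83.6 ± 39.6 CPM in KPC-OG and 33.7 ± 3.69 CPM in KPC (SD, n = 4 each), a log2 fold change of 1.31 ± 0.36 (SE; edgeR adjusted p = 0.0198). The call was lost without KPC-OG library 4 (edgeR adjusted p = 0.055), without KPC library 1 (edgeR adjusted p = 0.0553) and with limma-voom (adjusted p = 0.0576).

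Thbs1 (ENSMUSG00000040152; chr2:118111876-118127133, plus strand), whose product binds CD47 and CD36 and can activate latent TGF-beta, had 85.3, 64.5, 76.9 and 124 CPM in KPC-OG, against 35.7, 35.9, 33.7 and 53.0 CPM in KPC. The groups did not overlap, and KPC library 4 stood above the other KPC libraries. The means were 87.7 ± 25.7 CPM in KPC-OG and 39.6 ± 9.02 CPM in KPC (SD, n = 4 each), a log2 fold change of 1.14 ± 0.22 (SE; edgeR adjusted p = 0.00397). Thbs2 (ENSMUSG00000023885; chr17:14665500-14694235, minus strand), whose product inhibits angiogenesis and does not activate latent TGF-beta, had 23.6, 17.6, 10.8 and 29.0 CPM in KPC-OG, against 6.30, 5.45, 8.49 and 7.77 CPM in KPC. Every KPC-OG library was above every KPC library, although KPC counts were low, at 29 to 46 estimated reads. The means were 20.2 ± 7.84 CPM in KPC-OG and 7.00 ± 1.38 CPM in KPC (SD, n = 4 each), a log2 fold change of 1.55 ± 0.30 (SE; edgeR adjusted p = 0.00402).

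Tenascin C and periostin were higher with wider spread. Tnc (ENSMUSG00000028364; chr4:63959785-64047015, minus strand), which encodes a large matrix protein that interferes with cell attachment to fibronectin, had 52.3, 35.2, 45.3 and 72.2 CPM in KPC-OG, against 16.0, 27.4, 8.76 and 32.8 CPM in KPC. The groups did not overlap, but KPC-OG library 2 lay close above KPC library 4. The means were 51.2 ± 15.6 CPM in KPC-OG and 21.2 ± 10.9 CPM in KPC (SD, n = 4 each), a log2 fold change of 1.25 ± 0.37 (SE; edgeR adjusted p = 0.0279). The call was lost without KPC-OG library 1, KPC-OG library 4 or KPC library 1, with edgeR adjusted p-values of 0.0566, 0.0776 and 0.0818, and without KPC-OG library 3 and KPC library 2 together (edgeR adjusted p = 0.0532). Postn (ENSMUSG00000027750; chr3:54361109-54391037, plus strand), whose product binds collagen and integrins, had 95.2, 81.0, 39.6 and 92.2 CPM in KPC-OG, against 22.3, 48.8, 23.4 and 36.1 CPM in KPC. KPC library 2 was above KPC-OG library 3, and otherwise the groups were apart. The means were 77.0 ± 25.7 CPM in KPC-OG and 32.7 ± 12.5 CPM in KPC (SD, n = 4 each), a log2 fold change of 1.23 ± 0.32 (SE; edgeR adjusted p = 0.0168). The call was lost without KPC-OG library 4 (edgeR adjusted p = 0.0502) or KPC library 1 (edgeR adjusted p = 0.0507).

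**Figure D3:**
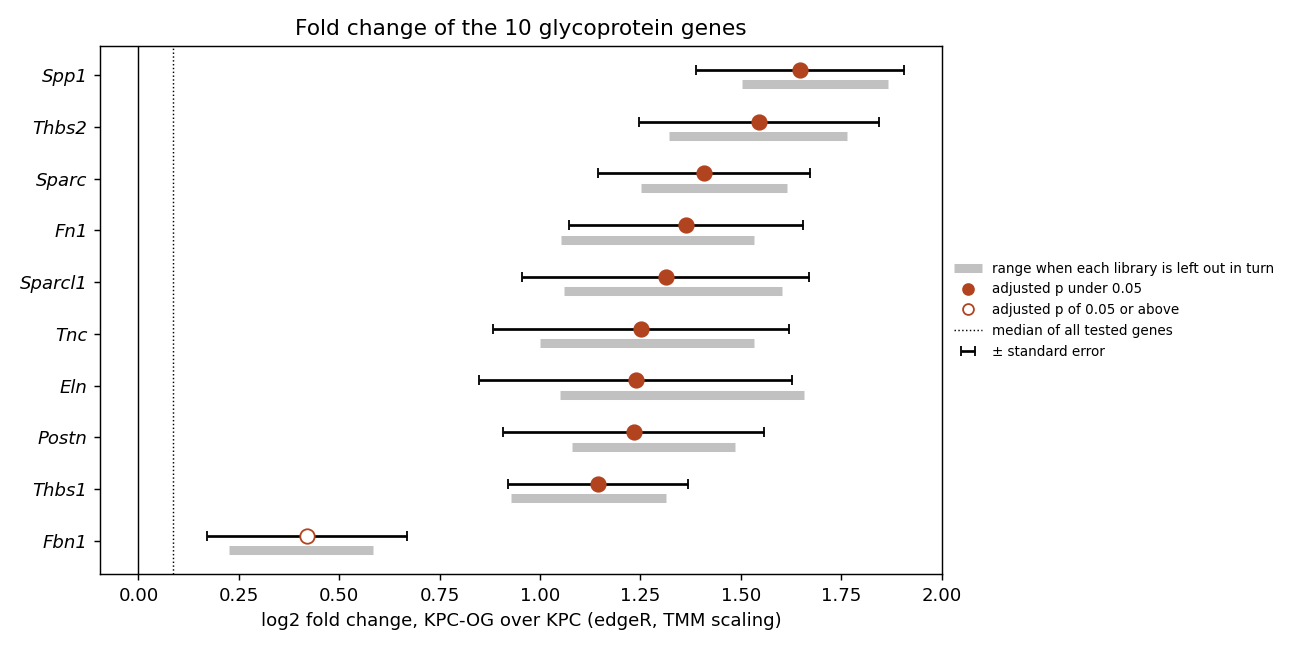
Log2 fold change of KPC-OG over KPC (horizontal axis) for each gene, with ± SE bars, filled points for an edgeR adjusted p under 0.05, and a grey band for the range when each library is left out in turn. The 9 called genes lie from 1.14 to 1.65, and Fbn1, the open point, lies at 0.42; the dotted line is the median of all tested genes, 0.085.

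The order of levels per length was almost the same in both genotypes. Spp1 had the highest mean, at 1027 ± 525 TPM in KPC-OG and 98.8 ± 12.9 TPM in KPC (SD, n = 4 each), followed by Sparc at 547 ± 280 TPM in KPC-OG and 64.9 ± 21.4 TPM in KPC. Fn1 came next with 312 ± 195 TPM in KPC-OG and 31.2 ± 11.5 TPM in KPC. The spreads of these neighbours overlapped, yet Spp1 was above Sparc, and Sparc above Fn1, within each of the 8 libraries. Postn, Sparcl1, Eln, Fbn1 and Thbs1 followed at 39.4 to 76.8 TPM in KPC-OG and 5.81 to 10.5 TPM in KPC, and their ranges overlapped. Tnc had 19.0 TPM in KPC-OG and 2.74 TPM in KPC, and Thbs2 was the lowest, at 9.05 TPM in KPC-OG and 0.945 TPM in KPC. Fbn1 ranked 7 of 10 in KPC-OG and 5 of 10 in KPC. The 10 genes together took 0.234%, 0.242%, 0.0794% and 0.378% of TPM in KPC-OG, against 0.0191%, 0.0335%, 0.0276% and 0.0300% in KPC. TPM values share a fixed total in each library, so TPM differences between the genotypes also carry the differences of all other genes. Lars2 and the acinar genes are among these, and their parts were not tested. The length indexed for Eln, 2583 bases, differs from the 3853 bases of the annotation, and those for Sparcl1 and Thbs2 differ as well, so their place in the order depends on the length used.

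A ratio within a library does not depend on the scaling between libraries. Fbn1 was taken as its denominator after its value had been seen, so the ratios are a description with no test. The ratio of reads to Fbn1 was higher in every KPC-OG library than in every KPC library for 7 of the 9 other genes, against 7.41% of all genes measured the same way, and Tnc and Sparcl1 overlapped. Fn1 had 2.06 to 3.56 reads per Fbn1 read in KPC-OG and 1.31 to 1.61 in KPC. Spp1 had 2.79 to 4.65 in KPC-OG and 0.984 to 1.95 in KPC, and Sparc 2.18 to 2.96 in KPC-OG and 1.13 to 1.42 in KPC. These ratios show unequal change of the gene and Fbn1, and not that Fbn1 did not change.

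**Figure D4:**
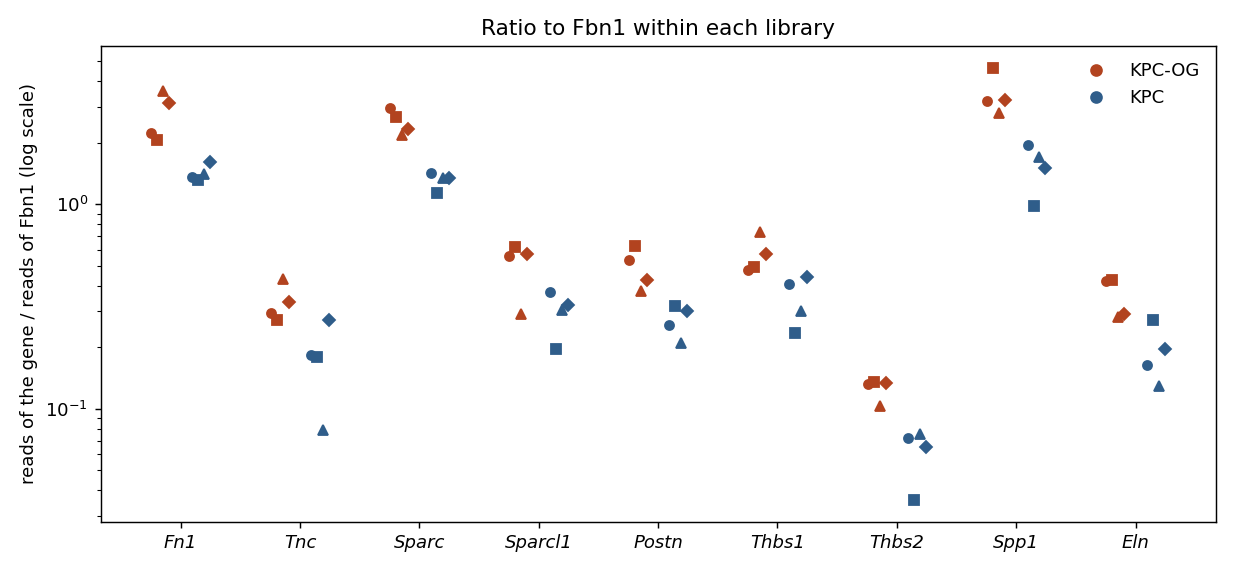
Reads of each of the 9 other genes per read of Fbn1 (vertical axis, log scale) in the 4 KPC-OG and the 4 KPC libraries, with 1 point for each library. The KPC-OG points lie above all KPC points for 7 genes, and overlap with them for Tnc and Sparcl1.

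KPC-OG library 3 was the lowest of its genotype for 7 of the 10 genes, and KPC-OG library 2 for Fn1, Tnc and Thbs1. KPC-OG library 4 was the highest for 7 genes and KPC-OG library 1 for Sparc, Postn and Eln. The summed level of 8 fibroblast markers was also lowest in KPC-OG library 3 and was highest in KPC-OG library 1, with 4631, 2776, 1637 and 4235 CPM in KPC-OG libraries 1 to 4 and 1016, 1296, 975 and 1274 CPM in KPC. Of these markers 7 of 8 were higher in KPC-OG by edgeR's test, against 17.4% of all tested genes, a share that also stands beside the marker counts that follow. KPC-OG library 3 also had the highest acinar sum of its genotype, 131780 CPM. All 8 macrophage markers were higher, with sums of 703 to 981 CPM in KPC-OG and 218 to 407 CPM in KPC, and KPC-OG library 3 had the highest of these sums. All 6 markers of duct and lesion epithelium were higher, at 526 to 1014 CPM in KPC-OG and 203 to 320 CPM in KPC. The part of these cell types in the results was not tested.

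Fewer markers passed for other cell types that make or carry these proteins, and differences between the lists were not tested. Their counts are to be read against the 17.4% of all tested genes that were higher. Of 8 smooth muscle and pericyte markers, 2 were higher, with a median log2 fold change of 1.36 and sums of 116 to 423 CPM in KPC-OG and 104 to 171 CPM in KPC. Of 6 endothelial markers 1 was higher, the von Willebrand factor gene Vwf, and their sums overlapped at 60.9 to 95.9 CPM in KPC-OG and 64.5 to 93.3 CPM in KPC. Platelets store Thbs1 and Sparc protein; of 5 platelet markers 2 were testable and 1 was higher, with sums of 7.71 to 9.47 CPM in KPC-OG and 3.72 to 5.57 CPM in KPC. Hepatocytes make plasma fibronectin, and 6 hepatocyte markers summed to 23.4, 271, 321 and 25.2 CPM in KPC-OG and 16.0 to 29.6 CPM in KPC, where the fibrinogen gene Fgb had no read; of 3 tested 2 were higher, with a median log2 fold change of 2.98. The 2 libraries with high hepatocyte sums, KPC-OG 2 and 3, were the lowest of their genotype for Fn1. The part of hepatocyte RNA in the Fn1 level was not tested. Mesothelial markers summed to 20.6 to 44.4 CPM in KPC-OG and 11.3 to 32.4 CPM in KPC, with 2 of 4 higher.

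Genes that work with the 10 were counted in 3 lists, to be read against the 17.4% of all tested genes that were higher and the 16.6% that were lower. Of 17 elastic fibre and microfibril genes 14 were higher and none was lower by edgeR's test (1 at an unadjusted p under 0.05, 1 by DESeq2 and 0 by limma-voom, in each case Ltbp3, named after its value was seen), with a median log2 fold change of 1.28. Mfap5, a microfibril component, had 34.7 ± 13.2 CPM in KPC-OG and 7.52 ± 2.64 CPM in KPC (SD, n = 4 each), a log2 fold change of 2.22 ± 0.35 (SE; edgeR adjusted p = 0.00186). Lox, the enzyme that cross-links elastin and collagen, had 35.9 ± 16.2 CPM in KPC-OG and 11.5 ± 2.23 CPM in KPC, with a log2 fold change of 1.65. Efemp2 (fibulin 4), which guides Lox to elastin, and Fbln2 (fibulin 2), which binds fibronectin and fibrillin 1, had log2 fold changes of 1.49 and 1.28. Fbln5, Ltbp3 and Ltbp4 did not pass.

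Among 23 other matricellular and adhesive glycoprotein genes, 21 were tested, with a median log2 fold change of 1.24. Of these, 11 were higher and 2 were lower, against 17.4% and 16.6% of all tested genes, and 8 did not pass. Mgp, an inhibitor of calcification, had 59.9 ± 20.4 CPM in KPC-OG and 13.6 ± 0.650 CPM in KPC (SD, n = 4 each), a log2 fold change of 2.14 ± 0.26 (SE; edgeR adjusted p = 0.000715). Ccn2, the connective tissue growth factor gene, had 43.0 ± 11.4 CPM in KPC-OG and 9.93 ± 2.89 CPM in KPC, with a log2 fold change of 2.12. Ecm1 and Tgfbi, which encode extracellular matrix protein 1 and a TGF-beta-induced adhesive protein, had log2 fold changes of 1.58 and 1.30. The lower genes, chosen after their values were seen, were the vitronectin gene Vtn, at 12.7 ± 9.12 CPM in KPC-OG and 85.0 ± 35.8 CPM in KPC (log2 fold change -2.77), and Smoc1, at 14.6 ± 3.61 CPM in KPC-OG and 23.5 ± 4.61 CPM in KPC (log2 fold change -0.69). The Smoc1 call was lost in 4 of the 8 fits with 1 library left out, those without KPC-OG library 2 (edgeR adjusted p = 0.0673), KPC library 1 (0.059), KPC library 2 (0.0583) or KPC library 4 (0.0666), and after re-centring (0.107). With library sizes alone or TPM its fold change was positive but below that of the median gene.

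Of 14 genes for cell receptors of the 10 proteins, 9 were higher, against 17.4% of all tested genes, with a median log2 fold change of 0.60. None was lower (0 at an unadjusted p under 0.05, 0 by DESeq2 and 0 by limma-voom), against 16.6% of all tested genes. Cd44, a receptor of hyaluronan and osteopontin, had 71.9 ± 19.3 CPM in KPC-OG and 21.9 ± 5.32 CPM in KPC (SD, n = 4 each), a log2 fold change of 1.72 ± 0.24 (SE; edgeR adjusted p = 0.00103). Stab1, a scavenger receptor of macrophages and sinusoidal endothelium that takes up SPARC, had 64.0 ± 9.59 CPM in KPC-OG and 28.6 ± 3.74 CPM in KPC, with a log2 fold change of 1.16. Itgb5 and Itgav, which together encode integrin αvβ5, had log2 fold changes of 1.46 and 0.75, and the Itgav call was lost after re-centring on the median gene (edgeR adjusted p = 0.122). The thrombospondin receptors Cd47 and Cd36 had log2 fold changes of -0.01 ± 0.14 and -0.01 ± 0.62 (SE) and did not pass.

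**Figure D5:**
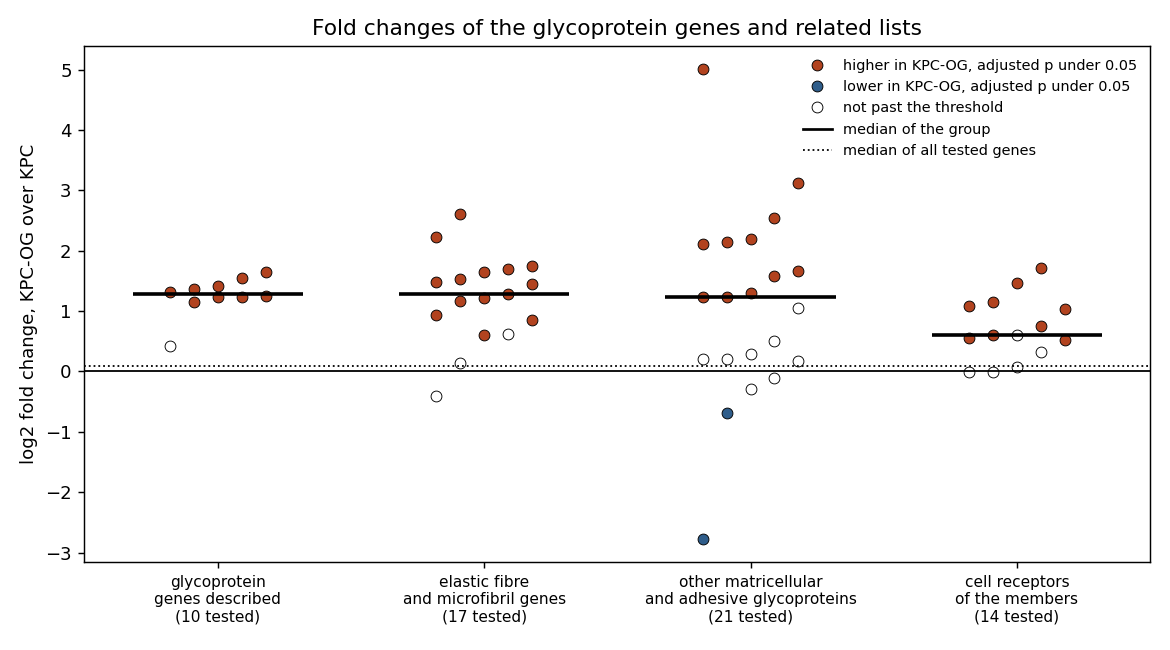
Log2 fold change of KPC-OG over KPC (vertical axis) for the 10 glycoprotein genes and for the tested genes of 3 related lists, with colour for genes past an edgeR adjusted p of 0.05 and a bar at each median. The medians are 1.28, 1.28, 1.24 and 0.60, from left to right, against 0.085 over all tested genes (dotted line).

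The genes whose centred log2 CPM profiles over the 8 libraries were most like the mean profile of the 10 were Fstl1, Vcan, Slit3, Tpm4 and Actg1, with root mean square differences of 0.107, 0.109, 0.113, 0.115 and 0.121. Fstl1 encodes a secreted glycoprotein of the SPARC family and is also on the list of other matricellular genes. Vcan encodes the proteoglycan versican, Slit3 a secreted guidance ligand, Tpm4 a tropomyosin and Actg1 a cytoplasmic actin. These profiles share the 8 libraries and their scaling with every other gene.

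Apart from Fn1, 6 of the genes have more than 1 transcript in the files, and the share of the transcript with the highest mean TPM over the 8 libraries did not pass the exact two-sided permutation test in any (smallest adjusted p = 0.686 over 6 genes). Spp1-201 held 96.7% ± 0.671 of Spp1 TPM in KPC-OG and 95.1% ± 1.77 in KPC (SD, n = 4 each). For Tnc the leading transcript within each genotype differed, with Tnc-201 at 8.72 TPM and Tnc-204 at 8.59 TPM in KPC-OG, and Tnc-201 at 0.708 TPM and Tnc-204 at 1.56 TPM in KPC. Tnc-204 held 43.6% ± 5.19 of Tnc TPM in KPC-OG and 59.4% ± 14.8 in KPC (SD, n = 4 each; exact permutation adjusted p = 0.686). Sparcl1, Thbs2 and Eln have 1 transcript each.

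Promoter windows of RefSeq (GRCm38.p6; 250 bases before to 50 after a gene's start) matched 6 of the 10 genes, Fbn1, Postn, Tnc, Spp1, Sparc and Thbs2, with 9 windows; Fn1, Sparcl1, Thbs1 and Eln were not matched. Motifs were searched on both strands, and no match overlapped another in these windows. The TATA box motif TATAAA was found in 5 of the 9 windows, of Postn, Spp1, Thbs2 and Tnc, against 13.6% of all 32851 windows; the 2 Tnc windows overlap and hold the same match. The CCAAT motif was found in 3 of the 9 windows, of Postn, Spp1 and Thbs2, against 37.4% of all windows. The AP-1 motif TGANTCA was in none of the 9 windows, against 7.81% of all windows. The TEAD motif GGAATG was in none either, against 14.7% of all windows. A window of Spp1, which had the largest fold change, and a window of Postn are printed as examples of genes that were higher together. Both are on the plus strand, 5′ to 3′, with motif matches in capitals. The Spp1 window holds the TATA box motif and the CCAAT motif, the second read from the other strand. The Postn window holds the TATA box motif alone, and the CCAAT match of Postn lies in another window that is not printed.
Spp1, chr5:104434861-104435160: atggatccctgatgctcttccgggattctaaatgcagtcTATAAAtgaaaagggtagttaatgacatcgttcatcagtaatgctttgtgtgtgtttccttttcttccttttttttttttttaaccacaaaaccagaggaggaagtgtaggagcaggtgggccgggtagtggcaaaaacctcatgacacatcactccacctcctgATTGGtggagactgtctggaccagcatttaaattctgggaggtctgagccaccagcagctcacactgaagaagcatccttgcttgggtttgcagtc
Postn, chr3:54360857-54361156: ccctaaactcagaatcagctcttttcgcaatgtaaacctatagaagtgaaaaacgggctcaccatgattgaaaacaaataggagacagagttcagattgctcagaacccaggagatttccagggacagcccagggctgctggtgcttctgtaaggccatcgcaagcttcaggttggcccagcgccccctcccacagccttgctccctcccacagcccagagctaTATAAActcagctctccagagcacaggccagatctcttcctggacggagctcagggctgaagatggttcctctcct
In the Postn window the TATAAA match lies close before the annotated start, and in the Spp1 window it lies far upstream of it. A match describes the letters of the window and not a site in use.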

How the data were processed

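Pancreas RNA was depleted of ribosomal RNA and run on the HiSeq 3000, per the labels' protocols and the design text. The authors ran Sailfish 0.6.3 (bias corrected, 1000 iterations, k-mers of 20 bases) on mouse cDNA of Ensembl release 76, per the file headers. The deposited estimated counts are the reads it assigned to each transcript and need not be whole. The deposited TPM values, made by Sailfish per the file headers, are levels per length within each library. STAR 2.0.4b, bcl2fastq, limma and edgeR also stand in the submitters' processing notes, with no role. Strand is not stated in the labels, so overlapping and antisense genes cannot be told apart.

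Of 86127 transcripts, 83827 matched 29621 genes of GENCODE M21 (GRCm38). The other 2300 held 1.45% to 3.05% of reads in KPC-OG and 3.93% to 4.23% in KPC, and were left out. Estimated counts were summed per gene and rounded. Genes were tested with edgeR 4.0.16 in R 4.3.3 (robust quasi-likelihood, filterByExpr, no block) with TMM factors of 1.14 to 2.28 in KPC-OG and 0.483 to 0.653 in KPC, and p-values were adjusted by Benjamini-Hochberg over 14267 genes at a threshold of 0.05. DESeq2 1.42.0, limma 3.58.1 (voom, and log2 TPM with pseudocounts of 1 and 0.1), other scalings, no filter, a block, Lars2 left out and each library left out were alternatives. Transcript shares were tested by exact permutation of 70 arrangements. Libraries of a genotype differed beyond counting noise (chi-square over degrees of freedom 14.7 or more), so none was counted as 1 library deposited again; this does not show that they came from separate mice. The edgeR test was checked on simulated counts of 14267 genes, with 100 changes planted at 2-fold and 100 at 4-fold. It recovered 56 of the 2-fold and 84 of the 4-fold changes, and 7 of its 147 calls were unchanged genes.

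The members and lists were chosen with earlier results of these data known. All 10 members are named, with up to 4 genes of each related list that had the smallest adjusted p among those that passed, and the 5 genes of nearest profile. Other genes named were chosen after their values were seen. The result of 1 marker list is not reported here.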

Additional observations from a re-analysis of the deposited data

Results flagged for a closer look

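In 5 of 69 groups of 4 libraries, the highest or lowest library stood apart beyond Dixon's 95% critical value for 4 samples. For continuous values, chance flags about 1 in 20 groups. Where the other libraries were all at 0% or all at 100%, any differing value was flagged, so this rate does not apply. Thbs1 was 53.02 CPM in KPC library 4, against 33.7 to 35.87 CPM in the other KPC libraries, and this value is nearest to the lowest KPC-OG library. The share of the Fn1 transcript Fn1-211, which holds extra domain A, was 4.447% of Fn1 TPM in KPC-OG library 3, against 0% to 0.09967% in the other KPC-OG libraries. The same transcript made up 11.09% in KPC library 4 and 0% in the other KPC libraries. The retained-intron transcript Fn1-212 made up 1.06% in KPC library 2 and 0% in the other KPC libraries. Thbs1-201, the main Thbs1 transcript, made up 71.76% of Thbs1 TPM in KPC library 3 and 100% in the other KPC libraries. KPC libraries held 127 to 314 estimated reads of Thbs1 and 590 to 1146 of Fn1.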

How the results depend on the processing

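The scaling had the largest effect on the counts of all genes. Genes called higher and lower numbered 2486 and 2373 with TMM, 13078 and 99 with library sizes alone, 917 and 1400 with library sizes re-centred on the median gene, and 12946 and 125, or 12898 and 123, with TPM at a pseudocount of 1 or 0.1. Of the 10 glycoprotein genes, 9 were higher with TMM, 10 with library sizes alone and with TPM, and 5 after re-centring. The fit without a filter called 8 (11.4% of all tested genes), the fit without Lars2 9 (17.4%), and the fit without KPC-OG library 3 and KPC library 2 together 9, with Fbn1 called and Tnc lost (19.0%). Related-list genes called higher numbered 34 with TMM and 20 after re-centring, and those called lower 2 with TMM and 1 with library sizes alone, after re-centring and with TPM. Itgav kept its direction after re-centring but was not called (log2 fold change 0.713, adjusted p = 0.122). Smoc1 reversed to 1.051 with library sizes alone and to 0.789 and 0.882 with TPM; these settings put the median of all genes at 1.824, 1.311 and 1.689.

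With 1 library left out, genes called higher ranged from 1689 to 2880 and lower from 1705 to 2548, glycoprotein genes called higher from 5 to 9, and related-list genes from 24 to 37 higher and 1 to 2 lower. None of the glycoprotein genes changed direction under any of the 18 alternatives. No share of Fn1 and no tested transcript share of another gene passed in any alternative, and since the adjustment leaves single shares no way to pass, this says nothing about their stability.

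Same-numbered libraries deviated together weakly, with correlations of 0.27, 0.28, 0.04 and 0.04, although 3 of 4 numbers matched best with their own. These values do not settle whether the numbers pair the samples. The main test used no pairing because the labels name none. With the replicate block, 9 glycoprotein genes, 34 related-list genes higher and 3 lower, and 2477 of all genes higher were called. Depth limits KPC most, where Thbs2 rests on 29 to 46 reads per library.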
